A study of Mus musculus with 22 samples.

Results

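Mouse morulae injected as zygotes with siRNAs against the histone variant H2A.Z were compared with control morulae at the level of RNA, 3 knockdown libraries against 4 control libraries. The comparison takes in every gene with at least 1 FPKM (sequenced fragments, scaled to transcript length and to the size of the library) in at least 3 of the 7 libraries, which kept 10989 of the 55335 genes in the table. The study lowered H2A.Z in early mouse embryos and read RNA from the 2-cell embryo to the blastocyst. Both groups came from B6D2F1 females of 8 weeks, superovulated and mated with B6D2F1 males. The knockdown used 3 siRNA pairs, mixed at 20 μM, of which each zygote got about 10 pl. Injection fell in pronuclear stage 3, at 20 to 22 h from human chorionic gonadotropin (hCG), and G1-plus was the medium. What the control zygotes were given is not stated in the labels. The methods name noninjected control embryos for quantitative PCR and do not describe the controls of RNA sequencing. An effect of injection itself cannot be told apart here from one of the loss of H2A.Z. The methods place morulae of this cross at 78 h after hCG. Each library pools 15 embryos, copied by Smart-seq2 from polyadenylated RNA with 16 to 18 cycles of amplification. The control libraries carry the replicate numbers 1, 2, 7 and 8 and are written here as C1, C2, C7 and C8, and the knockdown libraries 1, 2 and 6 as K1, K2 and K6.

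H2A.Z replaces canonical histone H2A in nucleosomes beside transcription start sites and at enhancers, where it is placed by the SRCAP and TIP60-p400 complexes and removed with the help of INO80 and the chaperone Anp32e. Mammals encode it in the genes H2afz and H2afv. The morula is the stage at which the blastomeres compact, gain an outer and an inner side, and begin to separate into trophectoderm and inner cell mass.

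Both genes for H2A.Z were low in the knockdown. H2afz had 1158, 1336, 1511 and 1421 FPKM in C1, C2, C7 and C8 and 30.3, 25.7 and 28.997 FPKM in K1, K2 and K6. Every knockdown library lies far below every control, and the 3 knockdown values are close to each other (limma log2 fold change -5.41, adjusted p 9.72e-08). Its paralogue H2afv had 97.3, 113, 100.0 and 92.5 FPKM in C1, C2, C7 and C8 and 12.9, 11.01 and 9.90 FPKM in K1, K2 and K6. H2afv is again low in all 3 knockdown libraries with no overlap (limma log2 fold change -2.94, adjusted p 2.92e-06), from a far lower level per length in control morulae than that of H2afz. An exact permutation of the group labels gave p 0.0286 for each gene, the smallest that 35 ways of splitting 7 libraries allow. Of the other H2A variants, H2afx, the variant phosphorylated at DNA breaks, had 72.2, 53.7, 22.5 and 22.2 FPKM in the controls and 54.7, 55.5 and 33.04 after knockdown, with overlapping groups (limma log2 fold change 0.43, adjusted p 0.444). The effect on H2afv was stronger in morulae than in blastocysts, a difference of -1.04 on the log2 scale (limma, adjusted p of the difference 0.0208), while the stage difference for H2afz was -0.18 (adjusted p 0.708).

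Mitochondrial RNA and the most abundant genes held a larger share of the knockdown libraries. The scaling factors were 1.17, 1.02, 1.01 and 0.966 in C1, C2, C7 and C8 and 0.997, 0.947 and 0.912 in K1, K2 and K6. Genes with at least 1 FPKM numbered 11174, 10509, 10579 and 10406 in C1, C2, C7 and C8 and 10490, 10363 and 10143 in K1, K2 and K6, so the counts overlap. As a percentage of all FPKM, the mitochondrial genome made up 13.3, 14.4, 14.6 and 13.4 in C1, C2, C7 and C8 and 17.3, 18.3 and 15.7 in K1, K2 and K6, higher in every knockdown library than in any control. The percentage held by the 50 most abundant genes was 27.2, 29.3, 30.5 and 29.3 in C1, C2, C7 and C8 and 32.3, 34.2 and 31.4 in K1, K2 and K6, again with no overlap. A ribosomal RNA gene on chromosome 17 named after its values were seen, CT010467.1, had 1777, 1999, 919 and 701 FPKM in the controls and 2766, 4547 and 2095 after knockdown and rose (limma log2 fold change 1.40, adjusted p 0.0262; limma adjusted p 0.0639 without C7, 0.0542 without C8, 0.0670 without K1 and 0.114 without K2). The part of ribosomal RNA fragments in the other differences was not tested.

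Markers of cumulus, granulosa, sperm and fibroblast cells, which could come along with embryos, were near 0. None of 9 cumulus and granulosa markers reached 1 FPKM in a library, with sums of 0.215, 0.164, 0.320 and 0.203 FPKM in the controls and 0.161, 0.210 and 0.115 after knockdown, and Has2, Ptx3, Fshr and Cyp11a1 were 0 in all 7. None of 6 sperm markers and none of 5 fibroblast markers reached 1 FPKM. Of the oocyte markers Zp1, Zp2, Zp3, Gdf9, Bmp15, Oosp1 and H1foo, only Zp3 and Oosp1 reached the level for testing. Where their RNA came from was not tested. Among the blood markers Hbb-bs and Ptprc were 0 in all 7 libraries, while the alpha globin gene Hba-a1 had 3.63, 1.31, 1.16 and 2.65 FPKM in the controls and 7.77, 5.01 and 4.23 after knockdown. Hba-a1 rose without overlap (limma log2 fold change 1.20, adjusted p 0.0172), a call lost when a knockdown library is left out (limma adjusted p 0.0721 without K1 and 0.0527 without K2). Of the genes that mark embryos of this age, Pou5f1 (55.3, 27.3, 23.7 and 21.5 FPKM in the controls and 21.3, 19.8 and 16.3 after knockdown) and Gata3 (22.7, 16.5, 16.6 and 20.8 FPKM in the controls and 10.4, 9.88 and 14.3 after knockdown) were present in all libraries, while Sox2 and Gata4, which mark later lineages, stayed under 1 FPKM in each. Cdx2, of the same marker list as Pou5f1 and Gata3, was under the level for testing, with its values given below.

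Of the 10989 genes, 464 (4.22 percent) were higher in the knockdown and 995 (9.05 percent) lower at an adjusted p under 0.05 in limma (unadjusted, 12.8 and 17.7 percent). The counts given below for gene lists are to be read against these shares. Genes are called differentially expressed (DEG) where the log2 fold change also exceeds 1 in size, which leaves 110 upregulated (1.00 percent) and 285 downregulated (2.59 percent). The log2 fold change is taken on scaled FPKM with 1 added, which shrinks it for genes of low level. Its median over all genes was 0.02 and its quartiles -0.30 and 0.26, relative to a centre that the scaling itself sets near 0. Every knockdown library lies above every control in 1345 genes (12.2 percent) and below every control in 1751 (15.9 percent). Among the 395 DEGs 388 are of this kind, genes picked by these same values. Without scaling between libraries the median shifts to -0.09 and upregulated DEGs make up 14.3 percent of the total in place of 27.8 percent. The numbers past adjusted p also hang on single libraries: without K2 they are 140 higher and 412 lower, without C1 558 and 1186, and without K6 the upregulated DEGs number 145 and the downregulated 382. Downregulated genes are protein coding in 87.0 percent, against 75.2 percent of all tested genes and 70.0 percent of upregulated ones. Upregulated DEGs are shorter and lower in level, with a median exonic length of 1560 bases and 3.65 FPKM in controls, against 2888 bases and 6.81 FPKM over all genes. Fewer cells of a kind and less RNA per cell cannot be told apart in pools of whole embryos, and the p-values measure the spread between these pools, which the labels do not call separate collections.

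**Figure D1:**
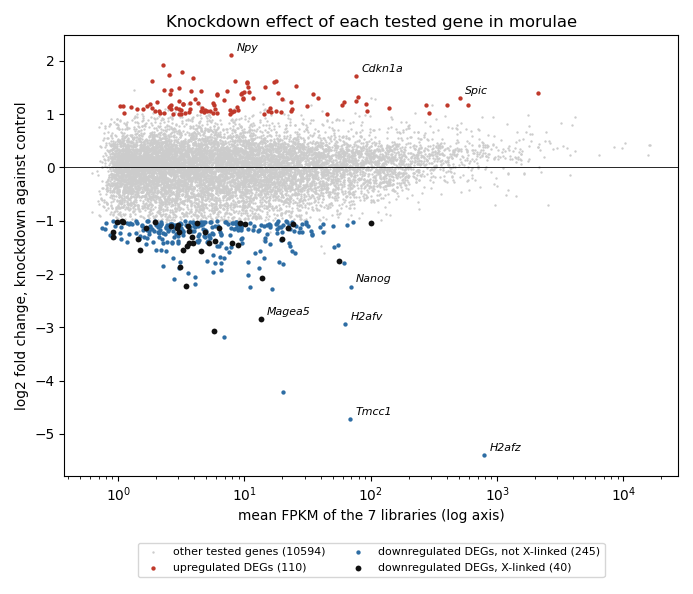
Log2 fold change of each tested gene in knockdown morulae against its mean FPKM over the 7 libraries; upregulated DEGs are red, downregulated DEGs blue and X-linked downregulated DEGs black.

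The upregulated genes of largest fold change mix a neuropeptide, a homeobox factor and enzymes. The neuropeptide Y gene Npy had 2.97, 4.35, 1.41 and 3.01 FPKM in the controls and 11.3, 15.7 and 16.1 after knockdown, the homeobox gene Nkx2-9 1.44, 0.281, 0.289 and 0.347 FPKM in the controls and 4.47, 4.98 and 4.002 after knockdown and the uridine phosphorylase gene Upp1 2.23, 0.710, 0.480 and 1.24 FPKM in the controls and 5.87, 4.22 and 7.49 after knockdown. None of these 3 genes shows overlap between the groups, and C1 is the high control for Nkx2-9 and Upp1 (limma log2 fold change 2.11, adjusted p 0.00180 for Npy; limma log2 fold change 1.93, adjusted p 0.00106 for Nkx2-9). Upp1 rose in morulae (limma log2 fold change 1.80, adjusted p 0.00379) and had a log2 fold change of -2.01 in blastocysts, the widest stage difference among the named genes (3.86, adjusted p 1.75e-05). Dcxr, which reduces dicarbonyl sugars and xylulose, had 10.5, 10.5, 8.35 and 5.68 FPKM in the controls and 37.8, 33.3 and 13.4 after knockdown, with K6 nearest the controls (limma log2 fold change 1.61, adjusted p 0.00950). Nup62cl, an X-linked relative of a nuclear pore gene, had 5.57, 9.30, 10.01 and 13.9 FPKM in the controls and 25.4, 31.6 and 28.03 after knockdown and rose in all 3 knockdown libraries (limma log2 fold change 1.63, adjusted p 0.00714). The pseudogene Gm4850 rose from levels under 2 FPKM (limma log2 fold change 1.74, adjusted p 0.00311). The immunoglobulin pseudogene segment Ighv1-60 had 0.925, 0.734, 0.286 and 0.343 FPKM in the controls and 3.15, 4.63 and 2.90 after knockdown. It reached the filter in the knockdown libraries only, the group where it is high. Its test therefore gives no separate support for a rise (limma log2 fold change 1.62, adjusted p 0.00160). Obox8, of a homeobox family active in early embryos, had 3.31, 4.06, 4.84 and 2.66 FPKM in the controls and 16.6, 22.3 and 4.75 after knockdown, where K6 lies beside the highest control (limma log2 fold change 1.62, adjusted p 0.0244 with all libraries, limma adjusted p 0.0559 without C8, 0.0933 without K1 and 0.0964 without K2). Gm4565 and Gm4513 are near-identical neighbours on chromosome 7 that share reads, so their values count as 1 measurement (limma log2 fold change 1.61, adjusted p 0.0159 for Gm4565, limma adjusted p 0.0605 without K1; limma log2 fold change 1.59, adjusted p 0.0165 for Gm4513, limma adjusted p 0.0609 without K1). The microRNA gene Mir92-1 lies inside its host transcript, and its call was lost without any of 6 libraries (limma adjusted p 0.0574 without C1, 0.0631 without C2, 0.0527 without C7, 0.0839 without K1, 0.104 without K2 and 0.0563 without K6). Its log2 fold change lay between 1.40 and 2.11 with 1 library left out.

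Other upregulated genes were picked after the values were seen. Spic, a transcription factor of the ETS class and among the most abundant upregulated genes, had 215, 345, 422 and 348 FPKM in the controls and 689, 763 and 753 after knockdown (limma log2 fold change 1.31, adjusted p 0.00950). All 3 knockdown libraries of Spic lie near each other and above every control, C1 being the lowest. Car4, a membrane-bound carbonic anhydrase, had 3.87, 4.01, 3.95 and 4.15 FPKM in the controls and 9.72, 12.04 and 13.04 after knockdown, with the controls within a narrow band (limma log2 fold change 1.44, adjusted p 0.00156). Arhgap42, a GTPase-activating protein, had 6.74, 6.53, 5.39 and 6.32 FPKM in the controls and 15.2, 18.3 and 17.4 after knockdown (limma log2 fold change 1.42, adjusted p 0.00104). The kinase gene Wnk1, which controls ion transport, had 7.94, 6.48, 3.83 and 4.91 FPKM in the controls and 13.9, 14.4 and 17.6 after knockdown (limma log2 fold change 1.41, adjusted p 0.00373). The calcium-binding protein gene S100a10, partner of annexin A2, had 47.4, 36.98, 43.7 and 35.2 FPKM in the controls and 82.1, 87.3 and 94.9 after knockdown, without overlap (limma log2 fold change 1.22, adjusted p 0.00155). Among 5 tested S100 genes, a list drawn up after the values were seen, 3 rose, with a median of 1.00 beside 0.02 over all genes (1 without C2, 1 without C8 and 1 without K2). Bracketed counts of this kind are those with 1 library left out or without scaling, given where a count of at least 3 genes moved strongly. Smaller counts, which 1 library can empty, are followed for some lists only. Square brackets give the range of a median with 1 library left out, where it moved strongly. The effect on S100a10 was higher in morulae than in blastocysts, a difference of 2.23 (limma, adjusted p 1.42e-04).

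At the other end, 4 of the 12 most reduced genes are H2A.Z genes or carry a stretch of H2afz sequence. Gm6722 had 29.3, 36.4, 42.99 and 30.8 FPKM in the controls and 1.04, 0.456 and 0.974 after knockdown and Gm13007 12.04, 11.1, 12.8 and 11.3 FPKM in the controls and 0.572, 0.311 and 0.206 after knockdown. Both are processed pseudogenes and both fell close to 0 in every knockdown library (limma log2 fold change -4.22, adjusted p 2.92e-06 and limma log2 fold change -3.18, adjusted p 2.92e-06). Gm13007 reached the filter in control libraries only, so its test gives no separate support for a decrease. The longest run of bases shared with an H2afz transcript was 81 bases for Gm6722 and 116 for Gm13007, against a median of 11 over all genes. At least 19 shared bases occur in 9 of the 10988 other tested genes, in 4 of the 284 other downregulated DEGs (Gm13007, Gm6722, Gm6108 with 77 and Gm9465 with 20) and in 0 of the 110 upregulated ones. Reads of such copies can be assigned to either gene, and the siRNA sequences are not among the files used here. H2afv shares at most 14 bases in a row with H2afz, so whether it was itself targeted is not known here. Tmcc1, a membrane protein of the endoplasmic reticulum, has no such stretch, its longest run being 12 bases. It had 91.2, 115, 137 and 125 FPKM in the controls and 3.50, 2.12 and 3.99 after knockdown and was nearly absent after knockdown (limma log2 fold change -4.72, adjusted p 2.92e-06).

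Further strong decreases lie in genes of varied roles. Smim11, a small membrane protein, had 14.3, 12.7, 22.1 and 20.1 FPKM in the controls and 3.05, 2.61 and 2.002 after knockdown (limma log2 fold change -2.24, adjusted p 8.90e-04). Cnpy2, an endoplasmic reticulum protein of the canopy family, had 5.58, 5.45, 8.07 and 7.48 FPKM in the controls and 0.890, 0.234 and 0.715 after knockdown (limma log2 fold change -2.18, adjusted p 8.90e-04). Both are low in all 3 knockdown libraries with wide gaps to the controls. Cnpy2 reached the filter in control libraries only, so its test gives no separate support for a decrease. The effect on Cnpy2 was weaker in morulae than in blastocysts, a difference of 2.16 (limma, adjusted p 5.70e-04). Platr14, a long noncoding RNA of the class named for pluripotency-associated transcripts, had 19.05, 23.1, 34.3 and 27.02 FPKM in the controls and 5.38, 2.69 and 4.40 after knockdown (limma log2 fold change -2.28, adjusted p 0.00124). Lncenc1, a noncoding RNA abundant in naive embryonic stem cells and named here after its values were seen, had 3.02, 2.67, 2.09 and 2.89 FPKM in the controls and 0.336, 0.191 and 0.348 after knockdown (limma log2 fold change -1.45, adjusted p 9.53e-04). Lncenc1 too reached the filter in control libraries only, so its test gives no separate support for a decrease. Also named for its values is Mtus2, a microtubule-associated protein, with 11.3, 10.2, 9.46 and 9.40 FPKM in the controls and 1.77, 1.65 and 1.75 after knockdown (limma log2 fold change -1.93, adjusted p 8.44e-05).

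**Figure D2:**
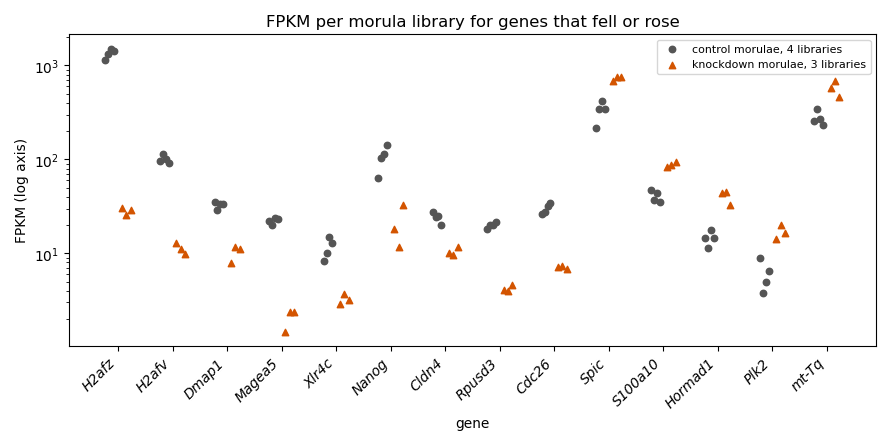
FPKM in each of the 4 control and 3 knockdown morula libraries for 14 genes that fell or rose; each point is 1 library of 15 pooled embryos.

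Downregulated genes were unevenly spread over the chromosomes, a pattern noticed after the values were seen. Of the 285 downregulated DEGs, 40 (14.04 percent) lie on the X chromosome, which holds 420 of the tested genes (3.82 percent). That is 9.52 percent of tested X-linked genes against 2.33 percent of 10514 autosomal genes, and the next chromosomes are 9 with 3.50 percent and 3 with 3.28 percent. Outside the multicopy families Magea, Mageb, Xlr and Fthl17, the last 3 named because they fell, 19 of 391 X-linked genes (4.86 percent) were downregulated DEGs. At an adjusted p under 0.05 in limma, 68 X-linked genes were lower and 12 higher. Upregulated DEGs were no more frequent on X than elsewhere: 3 genes (Nup62cl, Tsx and Gm14706), or 0.714 percent, against 0.951 percent of autosomal genes. The median log2 fold change of all X-linked genes was -0.08 against 0.02 on the autosomes. Leaving out 1 library moved the X-linked share between 5.96 percent (24 genes, without C7) and 11.1 percent (45 genes, without C1), with autosomes between 1.95 and 3.34 percent. Embryo sex is not given for the pools. Xist, the RNA of the inactive X chromosome, had 5.59, 5.89, 5.19 and 5.82 FPKM in the controls and 9.72, 6.14 and 3.23 after knockdown and the Y-linked gene Eif2s3y had 32.5, 22.2, 17.01 and 26.5 FPKM in the controls and 20.9, 20.5 and 30.9 after knockdown. Groups overlap for both genes (limma adjusted p 0.711 and 0.774). The effect on Eif2s3y was higher in morulae than in blastocysts, a difference of 1.95 at an adjusted p under 0.05 in limma. The part of the number of female embryos per pool in the X-linked values, and in their stage differences, was not tested.

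**Figure D3:**
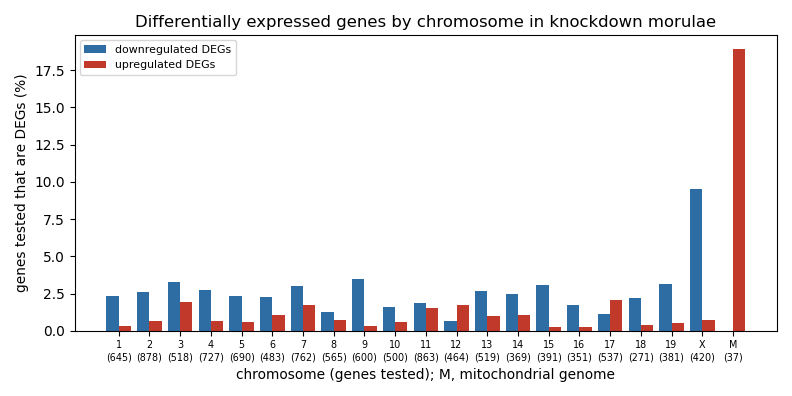
Percentage of tested genes on each chromosome that were downregulated (blue) or upregulated (red) DEGs in knockdown morulae, with the number of genes tested in brackets.

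Several of the X-linked genes belong to multicopy families expressed in germ cells and tumours. The Magea genes are cancer-testis antigens and adaptors of ubiquitin ligases. Magea5 had 22.3, 20.1, 23.6 and 23.1 FPKM in the controls and 1.45, 2.35 and 2.35 after knockdown, Magea8 5.77, 6.70, 13.99 and 13.4 FPKM in the controls and 0.231, 0.107 and 0.217 after knockdown and Magea2 2.69, 4.51, 8.34 and 7.76 FPKM in the controls and 0.610, 0.0494 and 0.341 after knockdown. Magea8 and Magea2 stay under 1 FPKM and Magea5 under 3 in every knockdown library, while C7 and C8 are the highest controls for Magea8 and Magea2 (limma log2 fold change -2.84, adjusted p 2.70e-05; limma log2 fold change -3.06, adjusted p 8.90e-04; limma log2 fold change -2.23, adjusted p 0.00439). Magea1 had 0.880, 1.05, 2.46 and 1.86 FPKM in the controls and 0.0594, 0.0269 and 0.0724 after knockdown (limma log2 fold change -1.21, adjusted p 0.00937). It reached the filter in 3 controls only, the group where it is high, so its test gives no separate support for a decrease. Magea8 and Magea2 also reached the filter in control libraries only, so the same holds for their tests. Magea3, with a log2 fold change of -0.76 (limma adjusted p 0.0896), was the 1 tested member not past the threshold. Their summed level was 33.4, 33.3, 51.1 and 48.7 FPKM in the controls and 2.95, 2.95 and 3.14 after knockdown, and the family median -2.23. Copies within a family share reads, so single members are less certain than sums.

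Further families were named after their values were seen. In the Xlr family, relatives of a synaptonemal complex protein, 11 of 12 tested genes fell and none rose, with a median of -1.07 (7 without C2, 6 without C7, 6 without C8, 3 without K1, 3 without K2 and 7 without K6). The family sums were 42.02, 56.5, 85.02 and 67.9 FPKM in the controls and 18.5, 19.5 and 20.9 after knockdown, lower in every knockdown library than in any control. Xlr4c had 8.38, 9.96, 14.8 and 12.8 FPKM in the controls and 2.90, 3.69 and 3.18 after knockdown (limma log2 fold change -1.42, adjusted p 0.00550). All 7 tested genes of the Fthl17 family, ferritin-like genes expressed from the paternal X chromosome of early embryos, fell, with a median of -1.31 (4 without C7, 4 without K1 and 4 without K6). Their sums were 35.4, 53.03, 51.4 and 40.9 FPKM in the controls and 14.6, 18.1 and 10.6 after knockdown. Fthl17-ps2, among these 7, reached the filter in control libraries only, so its test gives no separate support for a decrease. Of 6 Mageb genes 5 fell, with a median of -1.17 and sums of 48.4, 62.2, 83.8 and 80.8 FPKM in the controls and 20.2, 20.01 and 24.1 after knockdown. Of these 5, Mageb16-ps2 lies on chromosome 6 (limma log2 fold change -1.41, adjusted p 0.00757). Mageb1, also among the 5, reached the filter in control libraries only, so its test gives no separate support for a decrease. The Rhox homeobox cluster gave 0 calls in limma among 2 tested genes, with 1 at an unadjusted p under 0.05. Rhox5 had 42.7, 43.5, 74.8 and 70.6 FPKM in the controls and 25.5, 36.3 and 11.3 after knockdown (limma adjusted p 0.0540).

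Other X-linked decreases lie outside these families, in genes again named after their values were seen. Tceal8, a small protein related to a transcription elongation factor, had 24.1, 15.6, 26.6 and 19.11 FPKM in the controls and 3.03, 4.02 and 4.54 after knockdown, and its neighbour Tceal9 5.87, 5.63, 5.31 and 6.20 FPKM in the controls and 1.14, 1.20 and 1.87 after knockdown. Both fell with no overlap (limma log2 fold change -2.07, adjusted p 8.59e-04 and limma log2 fold change -1.41, adjusted p 0.00180). Mcts1, which helps recycle ribosomal subunits, had 115, 139, 148 and 126 FPKM in the controls and 65.5, 67.3 and 44.8 after knockdown (limma log2 fold change -1.03, adjusted p 0.00782). Brcc3, a deubiquitinase of the BRCA1-A complex, had 7.91, 13.96, 15.8 and 13.2 FPKM in the controls and 4.40, 3.71 and 2.68 after knockdown (limma log2 fold change -1.46, adjusted p 0.00771). Vma21, an assembly factor of the proton pump of lysosomes, had 4.39, 4.26, 5.06 and 3.94 FPKM in the controls and 0.954, 1.23 and 1.46 after knockdown (limma log2 fold change -1.21, adjusted p 0.00296). Psmd10, an assembly chaperone of the proteasome, had 21.97, 27.3, 38.6 and 31.8 FPKM in the controls and 11.6, 12.01 and 11.5 after knockdown (limma log2 fold change -1.14, adjusted p 0.0101). In each of these genes all 3 knockdown libraries lie below all 4 controls. The transcripts 8030474K03Rik (limma log2 fold change -1.88, adjusted p 3.25e-04) and Trpc5os (limma log2 fold change -1.35, adjusted p 8.90e-04) fell with larger effects in morulae than in blastocysts, with differences of -1.41 and -1.25 (limma, adjusted p of the differences 0.0178 and 5.70e-04). Both transcripts reached the filter in control libraries only, so their tests give no separate support for a decrease.

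Promoters of 2 of these families, Fthl17 and Magea, are shown to let the reader compare their sequences. All come from RefSeq on GRCm38.p6 and run from 250 bases before the start of the gene to 50 after it. For Fthl17, 6 of 7 tested genes matched, their promoters are 92.8 to 100 percent identical in pairs (median 96.6 percent; 203 to 301 aligned columns, as the windows are offset), and each holds TATAAA once on its own strand. Of all 32851 promoters, 8.32 percent hold TATAAA on their own strand and 13.6 percent on either. For Magea, all 5 tested genes matched, pairs are 54.4 to 92.7 percent identical, none holds TATAAA, and the CG count runs from 0 in Magea3 and Magea5 to 10 in Magea8, against a median of 7 over all promoters and 21 over those of tested genes. Capitals mark CG and TATAAA. Fthl17b lies at chrX:8962926-8963225, minus strand, Fthl17d at chrX:8986623-8986922, minus strand, Magea8 at chrX:154995801-154996100, minus strand and Magea5 at chrX:155061504-155061803, minus strand.
Fthl17b: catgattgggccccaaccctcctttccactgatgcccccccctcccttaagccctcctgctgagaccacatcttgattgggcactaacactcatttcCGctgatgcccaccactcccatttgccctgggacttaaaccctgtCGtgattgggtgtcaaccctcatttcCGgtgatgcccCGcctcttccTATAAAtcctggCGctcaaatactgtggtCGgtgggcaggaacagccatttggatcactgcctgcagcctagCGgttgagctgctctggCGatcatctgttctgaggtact
Fthl17d: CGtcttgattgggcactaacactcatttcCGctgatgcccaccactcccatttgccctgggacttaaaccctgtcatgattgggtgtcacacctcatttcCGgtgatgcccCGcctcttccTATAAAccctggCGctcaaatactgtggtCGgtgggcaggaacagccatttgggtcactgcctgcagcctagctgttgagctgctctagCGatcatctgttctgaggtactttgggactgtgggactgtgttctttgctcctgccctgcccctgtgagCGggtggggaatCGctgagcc
Magea8: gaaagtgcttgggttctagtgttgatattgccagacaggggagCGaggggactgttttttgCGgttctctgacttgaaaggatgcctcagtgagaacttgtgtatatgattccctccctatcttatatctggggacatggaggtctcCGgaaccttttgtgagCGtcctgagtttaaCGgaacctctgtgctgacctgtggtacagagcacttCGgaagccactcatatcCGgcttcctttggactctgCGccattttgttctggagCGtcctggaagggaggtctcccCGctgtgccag
Magea5: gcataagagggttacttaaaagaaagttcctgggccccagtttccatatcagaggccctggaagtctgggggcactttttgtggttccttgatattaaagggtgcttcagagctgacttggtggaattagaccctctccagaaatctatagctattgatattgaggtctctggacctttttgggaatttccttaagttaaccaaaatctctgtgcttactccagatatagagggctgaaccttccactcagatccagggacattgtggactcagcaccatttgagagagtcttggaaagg

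A few subunits of the machinery that places and removes H2A.Z fell. Dmap1, a subunit of both SRCAP and TIP60-p400, had 34.8, 28.9, 33.3 and 33.6 FPKM in the controls and 7.91, 11.6 and 11.2 after knockdown. All 3 knockdown libraries lie far below the 4 controls, and K1 is the lowest of all (limma log2 fold change -1.48, adjusted p 0.00164). The effect on Dmap1 was stronger in morulae than in blastocysts, a difference of -0.87 (limma, adjusted p 0.0200). Kat5, the acetyltransferase of the TIP60 complex, had 6.81, 4.21, 6.53 and 7.04 FPKM in the controls and 1.48, 1.51 and 2.16 after knockdown (limma log2 fold change -1.29, adjusted p 0.00488). Srcap itself had 1.67, 2.20, 0.778 and 1.79 FPKM in the controls and 1.23, 1.03 and 0.899 after knockdown and the H2A.Z chaperone gene Anp32e 9.87, 7.42, 6.85 and 6.02 FPKM in the controls and 11.004, 6.81 and 8.46 after knockdown, with overlapping groups (limma adjusted p 0.437 and 0.278). In the SRCAP list with Anp32e, 2 of 10 tested genes fell and none rose, with a median of -0.20 beside 0.02 over all genes. The second is the ATPase gene Ruvbl1, at 77.3, 80.3, 67.1 and 75.8 FPKM in the controls and 41.97, 44.7 and 46.9 after knockdown (limma log2 fold change -0.62, adjusted p 0.0204; limma adjusted p 0.0505 without C2, 0.0548 without C8, 0.0919 without K1 and 0.0783 without K2). The list of further TIP60 subunits had 1 of 11 genes lower and a median of 0.08 [0.03 to 0.20], and the INO80 list 2 of 12 and 0.01 [-0.06 to 0.14], against 9.05 percent of all genes lower; both medians turn negative without scaling. Actr8, an actin-related subunit of INO80, had 9.86, 8.22, 7.23 and 2.73 FPKM in the controls and 1.80, 2.30 and 1.57 after knockdown, with C8 close to the knockdown libraries (limma log2 fold change -1.28, adjusted p 0.0199; limma adjusted p 0.0715 without K1, 0.0515 without K2 and 0.0528 without K6). Mcrs1, which INO80 shares with acetyltransferase complexes, had 61.95, 56.6, 59.2 and 60.7 FPKM in the controls and 34.4, 31.6 and 36.6 after knockdown (limma log2 fold change -0.66, adjusted p 0.0139; limma adjusted p 0.0610 without K1 and 0.0704 without K2).

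Other chromatin lists held few calls. Of 20 Polycomb genes, which maintain repression, 2 rose and 0 fell, with a median of 0.14 [0.08 to 0.23] (1 lower at an unadjusted p under 0.05 in limma; 1 without C2, 1 without C7, 1 without C8, 0 without K1, 0 without K2 and 1 without scaling higher). Yaf2, a partner of the RING1 proteins in a variant complex, had 7.45, 8.42, 7.71 and 5.59 FPKM in the controls and 14.1, 11.4 and 10.6 after knockdown (limma log2 fold change 0.77, adjusted p 0.0158; limma adjusted p 0.0671 without K1 and 0.0540 without K2). Among 10 genes of the H3K4 methyltransferase complexes, which mark active promoters, Men1 was lower (limma log2 fold change -0.73, adjusted p 0.0329; limma adjusted p 0.0940 without K1, 0.108 without K2 and 0.0659 without K6) and the median was -0.08 [-0.17 to 0.03]. Men1 reached the filter in control libraries only, so its test gives no separate support for a decrease. The 20 tested replication-dependent histone genes gave 0 calls in limma, with 1 higher and 0 lower at an unadjusted p under 0.05, and a median of 0.14 [0.09 to 0.22].

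Zinc finger genes of the Zfp series, many of which recruit silencing complexes to repeats, fell more often than they rose. Of 196 tested, 39 fell and 6 rose, 19.9 percent and 3.06 percent against 9.05 and 4.22 percent of all genes, with a median of -0.14 [-0.23 to -0.11] (23 without C7, 19 without C8, 15 without K1 and 15 without K2 lower; 2 without C7, 3 without C8, 3 without K1, 2 without K2 and 2 without K6 higher). Zfp273 had 2.65, 2.49, 3.08 and 2.39 FPKM in the controls and 0.332, 0.502 and 0.351 after knockdown, and Zfp87 2.48, 2.03, 2.07 and 2.77 FPKM in the controls and 0.180, 0.282 and 0.349 after knockdown. Both lie on chromosome 13 and are close to 0 in every knockdown library (limma log2 fold change -1.33, adjusted p 0.00125 and limma log2 fold change -1.34, adjusted p 0.00156). They reached the filter in control libraries only, so their tests give no separate support for a decrease. Zfp273 shares sequence with Zfp72, Zfp87 with Zfp748 and Zfp938 with Zfp975. Zfp72 and Zfp748 also count among the 39, so these 39 are not all separate measurements. Zfp938, on chromosome 10, had 3.26, 3.22, 4.19 and 3.89 FPKM in the controls and 1.31, 0.819 and 0.722 after knockdown (limma log2 fold change -1.19, adjusted p 0.00435), and Zfp35 11.5, 12.1, 10.6 and 11.2 FPKM in the controls and 4.37, 3.51 and 4.66 after knockdown (limma log2 fold change -1.15, adjusted p 0.00296). Against this direction Zfp960 had 43.4, 60.7, 50.2 and 47.9 FPKM in the controls and 107, 117 and 107 after knockdown and Zfp97 34.8, 44.9, 40.8 and 39.6 FPKM in the controls and 81.1, 89.8 and 81.3 after knockdown. These 2 genes of chromosome 17 share sequence with each other and with further tested genes, so they count as 1 measurement, which rose (limma log2 fold change 1.24, adjusted p 0.00293 and limma log2 fold change 1.18, adjusted p 0.00296).

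Among targets of p53, some genes with other roles than cell cycle arrest rose as well. Of 26 tested p53 targets 7 rose and 0 fell, with a median of 0.52 (0 lower and 16 higher at an unadjusted p under 0.05 in limma; 12 without C1). Over all genes 4.22 percent rose and 9.05 percent fell, and 12.8 percent were higher at an unadjusted p under 0.05. Cdkn1a, the inhibitor of cyclin-dependent kinases, had 52.6, 32.4, 38.9 and 38.2 FPKM in the controls and 128, 149.8 and 94.03 after knockdown (limma log2 fold change 1.71, adjusted p 8.90e-04), and its effect was higher than in 2-cell embryos, a difference of 1.62 (limma, adjusted p 0.0147). With the replicate number as a block this stage difference did not pass (smallest adjusted p of all genes 0.0961 in limma). Plk2, a kinase of centriole duplication induced by stress, had 8.997, 3.73, 4.93 and 6.53 FPKM in the controls and 14.4, 19.8 and 16.6 after knockdown. Btg2, an antiproliferative regulator of mRNA decay, had 3.19, 0.945, 2.87 and 2.74 FPKM in the controls and 7.46, 8.10 and 6.47 after knockdown, and Trp53inp1, which promotes autophagy and cell death, 6.89, 4.55, 5.59 and 3.65 FPKM in the controls and 10.9, 14.2 and 8.29 after knockdown. All 3 genes rose without overlap (limma log2 fold change 1.51, adjusted p 0.00454; limma log2 fold change 1.44, adjusted p 0.00714; limma log2 fold change 1.09, adjusted p 0.00937). Trp53 had 48.2, 33.1, 27.8 and 34.9 FPKM in the controls and 38.6, 32.97 and 32.6 after knockdown, with overlapping groups and an adjusted p of 0.721 in limma, while its effect was lower than in blastocysts, a difference of -1.06 (adjusted p 0.0410). Among 19 genes of the BCL2 family and the caspases limma gave 0 calls, with 2 higher and 1 lower at an unadjusted p under 0.05, and a median of 0.16 [0.08 to 0.19].

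Of 46 tested DNA replication genes 9 were lower and 0 higher, with a median of -0.18 [-0.23 to -0.12] (3 higher at an unadjusted p under 0.05 in limma; 5 without C2, 3 without C7, 1 without C8, 1 without K1, 0 without K2 and 14 without scaling). Over all genes 9.05 percent were lower and 4.22 percent higher. Pole2, a subunit of leading-strand polymerase epsilon, had 25.3, 32.6, 25.5 and 28.6 FPKM in the controls and 14.5, 13.7 and 14.02 after knockdown (limma log2 fold change -0.82, adjusted p 0.0114; limma adjusted p 0.0513 without K2). Rpa1, the large subunit of the single-strand binding protein, had 4.26, 3.90, 5.55 and 5.801 FPKM in the controls and 2.15, 1.57 and 2.39 after knockdown (limma log2 fold change -0.86, adjusted p 0.0211; limma adjusted p 0.0555 without C7, 0.0523 without C8, 0.0654 without K1 and 0.0941 without K2). The most abundant gene of the list, Rrm2, had 291, 283, 343 and 402 FPKM in the controls and 299.8, 262 and 356 after knockdown, with overlap. Of 35 genes of mitosis and the cyclins, 2 rose and 2 fell, with a median of -0.01 [-0.09 to 0.04] (0 without C2, 0 without C7, 1 without C8, 0 without K1, 0 without K2, 1 without K6 and 0 without scaling higher; 1 without C1, 0 without C2, 0 without C7, 0 without C8, 0 without K1, 0 without K2 and 5 without scaling lower), and Ccnb1, the most abundant, had 448, 589.7, 524 and 602 FPKM in the controls and 648, 747 and 643 after knockdown (limma log2 fold change 0.46, adjusted p 0.111). Cdc26, a subunit of the anaphase-promoting complex named after its values were seen, had 26.4, 27.5, 31.7 and 34.7 FPKM in the controls and 7.20, 7.39 and 6.75 after knockdown, and all 3 knockdown values are within 1 FPKM of each other (limma log2 fold change -1.81, adjusted p 6.24e-04). Among 14 tested genes of that complex 3 fell, with a median of -0.11 [-0.19 to -0.03] (1 without C7, 1 without C8, 1 without K1, 1 without K2 and 1 without K6). Cenpk, an inner kinetochore protein picked in the same way, had 23.3, 29.8, 26.4 and 29.1 FPKM in the controls and 9.59, 10.4 and 2.68 after knockdown, with K6 well below K1 and K2 (limma log2 fold change -1.77, adjusted p 0.0102).

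A few lineage genes passed the threshold. Nanog, a factor of the epiblast, had 62.9, 103, 113 and 143 FPKM in the controls and 17.9, 11.6 and 32.5 after knockdown. The groups do not overlap, C1 being the lowest control and K6 the highest knockdown library (limma log2 fold change -2.23, adjusted p 0.00645). Tdh, a threonine dehydrogenase that feeds the metabolism of pluripotent cells, had 40.6, 36.6, 33.6 and 34.6 FPKM in the controls and 21.2, 14.2 and 14.8 after knockdown (limma log2 fold change -0.97, adjusted p 0.00521). Both effects were lower in morulae than in blastocysts, with differences from blastocysts of -2.49 and -1.73 (limma, adjusted p 0.00203 and 2.47e-04). Of 22 pluripotency factors 3 fell and 1 rose, with a median of 0.18 [0.04 to 0.21] (2 without C1, 0 without C2, 0 without C8, 0 without K1, 0 without K2 and 0 without scaling for the rise). Dppa3, the most abundant of them, had 4673, 5961, 7097 and 7327 FPKM in the controls and 6550.0, 6554 and 6845 after knockdown, with overlap. In the trophectoderm list 1 of 9 genes rose and 1 fell, with a median of -0.11 [-0.23 to -0.06]. Elf3, an epithelial ETS factor, had 61.3, 49.6, 40.5 and 53.7 FPKM in the controls and 21.4, 19.3 and 29.2 after knockdown (limma log2 fold change -0.99, adjusted p 0.00995; limma adjusted p 0.0510 without K2), and the difference from blastocysts was -1.45 (adjusted p 0.0199). Cdx2, the trophectoderm factor itself, was under the level for testing, with 1.19, 0.777, 0.926 and 0.884 FPKM in the controls and 0.834, 0.843 and 0.745 after knockdown, and Tead4, its activator, had 34.4, 25.7, 15.3 and 15.1 FPKM in the controls and 17.9, 20.3 and 16.1 after knockdown (adjusted p 0.783). Of 6 genes of the primitive endoderm limma called 0, and 0 reached an unadjusted p under 0.05. Gata6 had 27.8, 9.73, 10.3 and 8.87 FPKM in the controls and 9.26, 9.19 and 10.4 after knockdown, where C1 stands apart.

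Lists for compaction, the coming blastocoel and signalling held 1 call each. Cldn4, a claudin of tight junctions, had 27.8, 24.1, 25.02 and 19.9 FPKM in the controls and 10.2, 9.68 and 11.8 after knockdown, and the groups do not overlap (limma log2 fold change -1.003, adjusted p 0.00435). It was the 1 gene of 18 for polarity and junctions to pass, and the list median of 0.09 [-0.07 to 0.14] turns to -0.04 without scaling. Cdh1, the cadherin that compacts the morula, had 14.7, 10.2, 9.84 and 8.68 FPKM in the controls and 9.20, 10.9 and 9.85 after knockdown (limma adjusted p 0.916). Of 6 genes of fluid transport 1 rose, with a median of 0.44: Atp1b1, a subunit of the sodium pump, had 9.45, 6.90, 6.19 and 6.76 FPKM in the controls and 10.8, 11.8 and 9.38 after knockdown (limma log2 fold change 0.61, adjusted p 0.0280; limma adjusted p 0.0643 without C2, 0.0740 without C7, 0.0627 without C8, 0.0803 without K1 and 0.125 without K2). Among 14 Hippo genes 1 rose, Mob1b (limma log2 fold change 0.52, adjusted p 0.0455; limma adjusted p 0.106 without C2, 0.0722 without C7, 0.107 without C8, 0.0893 without K1, 0.173 without K2 and 0.0883 without K6), and the median was 0.18 [0.07 to 0.25]. For FGF and ERK feedback 1 of 10 rose, with a median of 0.27 [0.17 to 0.40]: Dusp6, a phosphatase that turns ERK off, had 2.88, 1.78, 1.67 and 1.77 FPKM in the controls and 3.91, 3.42 and 3.59 after knockdown (limma log2 fold change 0.73, adjusted p 0.0159; limma adjusted p 0.0585 without K1 and 0.0513 without K2). The effect on Dusp6 was higher than in blastocysts, a difference of 1.38 (limma, adjusted p 0.00374). For Nodal and BMP signalling 1 of 9 rose, with a median of 0.34 [0.17 to 0.48]: Id3, a target of BMP, had 75.8, 99.1, 59.9 and 59.4 FPKM in the controls and 135, 142 and 113 after knockdown (limma log2 fold change 0.96, adjusted p 0.0102; limma adjusted p 0.0513 without K2).

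Of 19 tested 2-cell genes 18 had a log2 fold change over 0; 4 rose and 1 fell, with a median of 0.44 and sums of 675, 658, 666 and 689 FPKM in the controls and 1018, 1083 and 888 after knockdown (2 without K1 and 1 without K2). Obox6, by far the most abundant, had 481, 545, 541 and 515 FPKM in the controls and 786, 823 and 699 after knockdown (limma log2 fold change 0.69, adjusted p 0.0132; limma adjusted p 0.0503 without K1 and 0.0670 without K2). Its effect was smaller than in blastocysts, a difference of -2.63 (limma, adjusted p 2.79e-05). Tdpoz5, of a family of adaptor-like genes, had 3.87, 2.72, 4.21 and 3.06 FPKM in the controls and 9.64, 6.05 and 6.31 after knockdown (limma log2 fold change 0.99, adjusted p 0.00952), while Pramef8, of the PRAME family, had 6.06, 3.02, 4.15 and 5.17 FPKM in the controls and 1.95, 0.853 and 1.25 after knockdown (limma log2 fold change -1.17, adjusted p 0.00933). The Zscan4 genes, the marks of the 2-cell-like state, stayed under 1 FPKM in every library and were not tested. Among 11 oocyte genes 2 rose and 1 fell, with a median of 0.20 [0.05 to 0.40]. The 2 that rose, Omt2a and Omt2b, share sequence with each other, so they count as 1 measurement. The call for Omt2b was lost without C1, C2, C7, K1, K2 or K6. Omt2a had 4.23, 4.36, 3.81 and 3.97 FPKM in the controls and 9.59, 9.27 and 7.04 after knockdown (limma log2 fold change 1.02, adjusted p 0.00439), and Ooep, of the subcortical maternal complex, 1.85, 2.85, 3.58 and 2.45 FPKM in the controls and 0.325, 0.330 and 0.810 after knockdown (limma log2 fold change -1.24, adjusted p 0.00761). Ooep reached the filter in control libraries only, so its test gives no separate support for a decrease. The decrease of Ooep was smaller than in blastocysts, a difference of 2.28 (limma, adjusted p 5.70e-04).

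Of 16 tested germline genes 5 fell and 1 rose, with a median of -0.34 [-0.45 to -0.22] (3 without C7, 3 without C8 and 3 without K1). Slc25a31, the testis form of the mitochondrial ADP/ATP carrier, had 3.99, 3.27, 4.20 and 3.64 FPKM in the controls and 0.132, 0.308 and 0.387 after knockdown, and is close to 0 in all 3 knockdown libraries (limma log2 fold change -1.84, adjusted p 3.20e-04). Slc25a31 reached the filter in control libraries only, so its test gives no separate support for a decrease. Asz1 and Tdrd12 act in the piRNA pathway, which silences transposons in germ cells. Asz1 had 12.6, 14.5, 17.5 and 19.95 FPKM in the controls and 5.17, 6.81 and 6.02 after knockdown and Tdrd12 3.06, 4.14, 5.55 and 5.06 FPKM in the controls and 1.12, 0.303 and 1.54 after knockdown (limma log2 fold change -1.17, adjusted p 0.00905 and limma log2 fold change -1.41, adjusted p 0.0104). In a wider piRNA list, made after these values were seen, 6 of 11 tested genes fell and 0 rose (0 higher at an unadjusted p under 0.05 in limma), with a median of -0.60 and sums of 95.5, 96.2, 126 and 106 FPKM in the controls and 44.6, 49.3 and 50.8 after knockdown (3 without K1). Gtsf1l, a small zinc finger protein of that list, had 22.7, 29.6, 28.1 and 28.9 FPKM in the controls and 8.01, 9.19 and 10.2 after knockdown (limma log2 fold change -1.36, adjusted p 0.00296). Hormad1, a meiotic chromosome axis protein, moved the other way with 14.6, 11.5, 17.6 and 14.7 FPKM in the controls and 43.99, 44.96 and 33.01 after knockdown. The knockdown libraries of Hormad1 are all above the controls (limma log2 fold change 1.54, adjusted p 0.00153).

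Imprinted genes, expressed from 1 parental copy, gave 3 increases and 0 decreases among 11 tested, with a median of 0.28 [-0.05 to 0.29] (1 lower at an unadjusted p under 0.05 in limma; 1 without K1, 1 without K2 and 1 without K6). Impact, a paternally expressed regulator of the stress kinase GCN2, had 11.7, 13.02, 17.7 and 19.22 FPKM in the controls and 33.004, 31.9 and 36.7 after knockdown, without overlap (limma log2 fold change 1.23, adjusted p 0.00793). Snrpn, a paternally expressed splicing protein, had 177, 177, 157 and 165 FPKM in the controls and 220.0, 240.0 and 220.1 after knockdown (limma log2 fold change 0.55, adjusted p 0.0212; limma adjusted p 0.0581 without C7, 0.0568 without K1, 0.106 without K2 and 0.0524 without K6). Snord107, a small nucleolar RNA of the same imprinted region and named after its values were seen, had 9.22, 9.44, 7.07 and 6.82 FPKM in the controls and 22.96, 25.6 and 20.3 after knockdown (limma log2 fold change 1.51, adjusted p 8.90e-04). Small RNAs of this kind lie within introns of longer transcripts, whose fragments count towards them in unstranded libraries. Of the 20 homeobox and patterning factors 3 rose and 1 fell, with a median of 0.13 [0.06 to 0.24] (1 without K2 higher). Besides Nkx2-9 the increases were Foxa1 (limma log2 fold change 1.03, adjusted p 0.0123; limma adjusted p 0.0576 without K2) and Foxj3 (limma log2 fold change 1.15, adjusted p 0.0221; limma adjusted p 0.0534 without C2, 0.0787 without K1, 0.0608 without K2 and 0.0514 without K6). Gata1, an X-linked factor of blood lineages, had 27.4, 31.4, 31.04 and 28.2 FPKM in the controls and 21.2, 12.6 and 11.7 after knockdown and was lower (limma log2 fold change -0.84, adjusted p 0.0206; limma adjusted p 0.0528 without C7, 0.0940 without K2 and 0.0600 without K6).

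Some transcripts of the mitochondrial genome rose, and some nuclear genes for mitochondrial translation fell. Of 13 mitochondrial protein genes 6 were higher and 0 lower, with a median of 0.49 (0 lower at an unadjusted p under 0.05 in limma; 2 without C7, 2 without C8, 1 without K1, 1 without K2 and 2 without scaling). The complex I subunit gene mt-Nd2 had 2759, 2688, 2382 and 2167 FPKM in the controls and 4153, 4784 and 3437 after knockdown (limma log2 fold change 0.84, adjusted p 0.00613). The most abundant, mt-Cytb, had 11382, 14712, 18392 and 16588 FPKM in the controls and 16218, 16188 and 16535 after knockdown, with overlap. Of 22 mitochondrial tRNAs, listed after the values were seen, 11 rose and 0 fell (0 lower at an unadjusted p under 0.05 in limma), with a median of 0.90 and sums of 7082, 10874, 9552 and 8364 FPKM in the controls and 14366, 16114 and 12502 after knockdown (17 without C1, 5 without K1, 4 without K2 and 19 without K6). The glutamine tRNA mt-Tq had 256, 341, 267 and 235 FPKM in the controls and 579, 680.0 and 458 after knockdown and the proline tRNA mt-Tp 91.9, 110.1, 94.8 and 93.3 FPKM in the controls and 197, 241 and 153 after knockdown. Both rose in all 3 knockdown libraries, K6 being the lowest (limma log2 fold change 1.18, adjusted p 0.00451 and limma log2 fold change 1.11, adjusted p 0.00488). All 37 tested genes of that genome include 7 upregulated DEGs, 18.9 percent, and all 7 are tRNAs. In unstranded libraries of polyadenylated RNA, fragments of longer mitochondrial transcripts can count towards tRNA genes. The values are therefore not a measure of mature tRNA, and single tRNAs may not be separate measurements. The part of such fragments was not tested.

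On the nuclear side, 16 of 78 genes of the mitochondrial ribosome fell and 0 rose, with a median of -0.31 (1 higher at an unadjusted p under 0.05 in limma; 36 without C1, 8 without C2, 4 without C7, 5 without C8, 3 without K1, 3 without K2 and 38 without scaling). Their sums were 5680.5, 6576, 6475 and 6379 FPKM in the controls and 5035, 4819 and 5087 after knockdown. Mrps11 had 31.1, 29.9, 27.9 and 31.4 FPKM in the controls and 14.5, 13.6 and 9.98 after knockdown, Mrps31 68.3, 66.7, 70.7 and 77.6 FPKM in the controls and 30.6, 34.2 and 35.8 after knockdown and Mrpl47 27.1, 30.8, 31.99 and 30.01 FPKM in the controls and 13.8, 13.8 and 14.6 after knockdown. No group overlap occurs in these 3 genes (limma log2 fold change -1.08, adjusted p 0.00372; limma log2 fold change -0.93, adjusted p 0.00645; limma log2 fold change -0.92, adjusted p 0.00685). Ligases that charge mitochondrial tRNAs, grouped once the values were known, fell in 4 of 15 cases, with a median of -0.42 [-0.53 to -0.20]: Hars2 had 9.73, 8.32, 10.98 and 14.3 FPKM in the controls and 2.92, 2.90 and 4.82 after knockdown (limma log2 fold change -1.28, adjusted p 0.00937) and Tars2 8.97, 4.42, 6.13 and 7.84 FPKM in the controls and 2.19, 2.64 and 1.75 after knockdown (limma log2 fold change -1.17, adjusted p 0.00793). Of 84 nuclear genes of the respiratory chain 9 fell and 2 rose, with a median of -0.08 [-0.22 to -0.02] (16 without C1, 5 without K2 and 16 without scaling lower; 1 without C2, 1 without C7, 0 without C8, 0 without K1, 0 without K2 and 1 without K6 higher). Over all genes 9.05 percent fell and 4.22 percent rose. Cox7b2, a testis form of a complex IV subunit, had 5.40, 3.73, 7.21 and 6.79 FPKM in the controls and 0.922, 0.721 and 0.259 after knockdown (limma log2 fold change -1.98, adjusted p 0.00160). It reached the filter in control libraries only, so its test gives no separate support for a decrease.

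Sdha, the flavoprotein of succinate dehydrogenase, had 26.4, 21.3, 20.96 and 23.2 FPKM in the controls and 11.2, 9.40 and 10.5 after knockdown, and the membrane anchor Sdhd 32.3, 38.2, 40.7 and 45.3 FPKM in the controls and 15.8, 13.9 and 14.9 after knockdown. All knockdown values of both genes lie below the controls by a wide margin (limma log2 fold change -0.95, adjusted p 0.00414 and limma log2 fold change -1.21, adjusted p 0.00435). The other anchor, Sdhc, had 14.6, 13.7, 11.1 and 11.2 FPKM in the controls and 7.04, 6.56 and 6.35 after knockdown (limma log2 fold change -0.71, adjusted p 0.0120; limma adjusted p 0.0528 without K2). These 3 genes count in the respiratory chain list and again in the next. Of 23 genes of pyruvate entry and the tricarboxylic acid cycle 5 fell and 0 rose, with a median of -0.28 [-0.33 to -0.16] (3 higher at an unadjusted p under 0.05 in limma; 2 without K2, 8 without K6 and 8 without scaling). Over all genes 9.05 percent fell and 4.22 percent rose. Glycolysis and the pentose phosphate path had 1 of 17 lower, Eno1 (limma log2 fold change -1.09, adjusted p 0.0366; limma adjusted p 0.0849 without C7, 0.0834 without C8, 0.142 without K1 and 0.139 without K2), and a median of -0.15. Of 20 antioxidant genes 4 rose and 0 fell, with a median of 0.32 and sums of 3106, 2865, 2801 and 2737 FPKM in the controls and 3445, 3625 and 3811 after knockdown (0 lower at an unadjusted p under 0.05 in limma; 2 without K2). The haem oxygenase gene Hmox1 had 4.39, 3.31, 2.26 and 3.94 FPKM in the controls and 8.91, 8.08 and 11.6 after knockdown (limma log2 fold change 1.35, adjusted p 0.00444), and Gclm, of glutathione synthesis, 10.5, 8.56, 8.18 and 8.29 FPKM in the controls and 13.8, 13.7 and 13.9 after knockdown (limma log2 fold change 0.70, adjusted p 0.0104). The metallothionein gene Mt1 had 447, 389, 328 and 364 FPKM in the controls and 534, 732 and 567 after knockdown (limma log2 fold change 0.80, adjusted p 0.0101; limma adjusted p 0.0528 without K2).

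The lists of pseudouridine synthases and of Elongator, which modify RNA, were drawn up after their values were seen. Of 12 pseudouridine synthases 5 fell and 0 rose, with a median of -0.43 and sums of 219, 229.7, 268 and 248 FPKM in the controls and 175, 149 and 151 after knockdown (0 higher at an unadjusted p under 0.05 in limma). Rpusd3 had 18.2, 19.9, 19.8 and 21.3 FPKM in the controls and 4.07, 3.93 and 4.57 after knockdown, low in every knockdown library (limma log2 fold change -1.89, adjusted p 3.20e-04). Trub2 had 12.8, 5.25, 10.2 and 8.68 FPKM in the controls and 1.83, 2.29 and 2.83 after knockdown (limma log2 fold change -1.48, adjusted p 0.00582) and Pus10 7.37, 7.30, 6.92 and 8.02 FPKM in the controls and 2.13, 2.15 and 1.68 after knockdown (limma log2 fold change -1.40, adjusted p 0.00106). Rpusd3 and Trub2 act on mitochondrial RNA, and their effects were stronger in morulae than in blastocysts, with differences of -0.98 and -1.14 (limma, adjusted p 0.0275 and 0.0403). In the Elongator complex, which modifies wobble uridines of tRNA, 3 of 6 genes fell, with a median of -0.71 (1 without K1 and 1 without K2), among them Elp6 with 27.1, 30.02, 29.5 and 28.99 FPKM in the controls and 13.9, 10.4 and 13.4 after knockdown (limma log2 fold change -1.03, adjusted p 0.00488). Of 20 cytoplasmic aminoacyl-tRNA synthetases 4 fell and 0 rose, with a median of -0.34 and sums of 870.1, 811, 774 and 851 FPKM in the controls and 637, 609 and 697 after knockdown (0 higher at an unadjusted p under 0.05 in limma; 2 without C2, 1 without C8, 0 without K1, 0 without K2 and 7 without scaling). Wars, which charges tryptophan, had 16.1, 11.04, 11.4 and 14.3 FPKM in the controls and 5.39, 4.81 and 7.17 after knockdown (limma log2 fold change -0.95, adjusted p 0.0106; limma adjusted p 0.0503 without K1 and 0.0532 without K2).

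Few genes of the other translation and splicing lists passed. Of 89 cytoplasmic ribosomal protein genes 1 rose and 1 fell, with a median of 0.26 and 82 positive values. At an unadjusted p under 0.05 in limma 25 of the 89 were higher and 1 lower. Over all genes 12.8 percent were higher and 17.7 percent lower at that level. The fall is Rpl10l, an autosomal retrocopy used in germ cells, at 109, 104, 116 and 97.4 FPKM in the controls and 67.9, 60.3 and 68.7 after knockdown (limma log2 fold change -0.57, adjusted p 0.0238; limma adjusted p 0.0653 without C7, 0.0523 without C8, 0.0867 without K1 and 0.114 without K2). Among 52 genes of ribosome biogenesis limma called 0, with 5 higher and 1 lower at an unadjusted p under 0.05. Of 41 initiation factors 2 rose, with a median of 0.08 [0.04 to 0.13] that turns to -0.04 without scaling. The translation repressor gene Eif4ebp1, 1 of these 2 and also counted in the stress list, had 208, 222, 183 and 177 FPKM in the controls and 299, 269 and 294 after knockdown (limma log2 fold change 0.67, adjusted p 0.0113). Among 74 splicing factors 3 rose and 4 fell, with a median of 0.08 [0.03 to 0.13] (-0.04 without scaling; 1 without C2, 1 without C7, 1 without C8, 0 without K1, 0 without K2, 0 without K6 and 1 without scaling higher; 7 without C1, 2 without C7, 2 without K1 and 7 without scaling lower). Sf3a3, of the U2 particle, had 86.4, 74.5, 85.002 and 88.7 FPKM in the controls and 45.9, 45.8 and 43.2 after knockdown (limma log2 fold change -0.76, adjusted p 0.00843), and U2af1l4 31.7, 35.3, 39.4 and 37.2 FPKM in the controls and 15.02, 15.3 and 19.01 after knockdown (limma log2 fold change -0.96, adjusted p 0.00879). Txnl4b, a spliceosomal relative of thioredoxin named after its values were seen, had 16.8, 14.7, 15.7 and 16.9 FPKM in the controls and 3.35, 3.24 and 4.26 after knockdown (limma log2 fold change -1.78, adjusted p 4.08e-04). Of 46 DEAD and DEAH helicases 2 rose and 2 fell, with a median of -0.18 [-0.29 to -0.18] (5 without C1, 1 without C2, 0 without C7, 1 without C8, 0 without K1, 1 without K2, 5 without K6 and 12 without scaling lower). Dhx16, which remodels the spliceosome, had 45.7, 37.5, 43.5 and 35.1 FPKM in the controls and 60.2, 72.8 and 76.999 after knockdown (limma log2 fold change 0.90, adjusted p 0.00714). Polr2g, a stalk subunit of RNA polymerase II also picked for its values, had 77.2, 105, 97.8 and 81.7 FPKM in the controls and 20.3, 23.3 and 26.2 after knockdown and was the 1 of 13 subunits to pass (limma log2 fold change -1.79, adjusted p 8.90e-04).

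Decreases among proteasome genes and chaperones were about as frequent as the 9.05 percent over all genes. Of 45 proteasome genes 4 fell and 1 rose, with a median of 0.01 [-0.07 to 0.08] (-0.12 without scaling; 7 without scaling lower). Psmb10 and Psmb9, catalytic subunits of the immunoproteasome, had 15.96, 15.6, 18.99 and 14.8 FPKM in the controls and 9.15, 6.86 and 5.69 after knockdown and 1.65, 1.61, 1.42 and 1.43 FPKM in the controls and 0.350, 0.412 and 0.321 after knockdown, while Psma1, of the outer ring of the core, had 462, 407, 401 and 365 FPKM in the controls and 615, 568 and 562 after knockdown. The first 2 were lower and the last higher, all without overlap (limma log2 fold change -0.98, adjusted p 0.00793; limma log2 fold change -0.84, adjusted p 0.00582; limma log2 fold change 0.64, adjusted p 0.00843). Psmb9 reached the filter in the control libraries only, where it is high, so its test gives no separate support for a decrease. Of 55 chaperones 5 fell and 2 rose, with a median of -0.17 [-0.27 to -0.09] (3 without C2, 3 without C7, 3 without C8, 1 without K1, 2 without K2 and 3 without K6 lower; 1 without K1 higher). The small heat shock gene Hspb1 had 29.2, 23.5, 18.3 and 16.2 FPKM in the controls and 65.3, 52.1 and 41.03 after knockdown (limma log2 fold change 1.37, adjusted p 0.00296), and Dnajc17, a nuclear co-chaperone, 15.97, 18.3, 13.2 and 11.6 FPKM in the controls and 6.60, 7.0003 and 4.55 after knockdown (limma log2 fold change -1.05, adjusted p 0.00768). Dnajb9, a target of the unfolded protein response, had 151, 188, 152 and 163 FPKM in the controls and 269, 239 and 243 after knockdown (limma log2 fold change 0.74, adjusted p 0.0122; limma adjusted p 0.0548 without K1). The effect on Dnajb9 was smaller than in blastocysts, a difference of -1.19 (limma, adjusted p 9.48e-04). Trappc1, of the tethering complex of early secretion and named after its values were seen, had 68.8, 76.9, 81.9 and 81.3 FPKM in the controls and 27.1, 25.2 and 23.3 after knockdown (limma log2 fold change -1.45, adjusted p 9.53e-04), 1 of 2 decreases among 11 TRAPP genes (median -0.37).

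Smaller lists cover the remaining metabolism and stress genes. Of 24 genes of sterol and fatty acid synthesis 3 rose and 2 fell, with a median of -0.12 [-0.16 to -0.06] (1 without C2, 0 without C7, 1 without C8, 0 without K1, 0 without K2 and 1 without scaling higher). Nsdhl, an X-linked enzyme of cholesterol synthesis, had 3.38, 4.56, 4.35 and 4.60 FPKM in the controls and 1.17, 1.10 and 1.72 after knockdown (limma log2 fold change -1.08, adjusted p 0.00771). Of 22 genes of nucleotide metabolism 1 rose and 2 fell, with a median of -0.12 [-0.19 to -0.06]: Dhodh, the mitochondrial step of pyrimidine synthesis, had 11.3, 6.43, 7.58 and 9.09 FPKM in the controls and 4.35, 3.27 and 3.28 after knockdown (limma log2 fold change -0.93, adjusted p 0.0104), and Adsl, of purine synthesis, 26.9, 26.6, 29.2 and 32.2 FPKM in the controls and 14.4, 13.1 and 16.3 after knockdown (limma log2 fold change -0.82, adjusted p 0.0133; limma adjusted p 0.0582 without K1 and 0.0629 without K2). Of 15 genes of the integrated stress response 1 rose and 1 fell, with a median of 0.06 [-0.08 to 0.09] (-0.06 without scaling). Shmt2, of mitochondrial one-carbon metabolism, had 8.48, 5.52, 7.39 and 7.49 FPKM in the controls and 3.42, 2.17 and 2.72 after knockdown (limma log2 fold change -1.03, adjusted p 0.00714). Among 6 interferon and RNA-sensing genes 2 rose, with a median of 0.45 (1 without C2, 1 without C7, 1 without C8, 0 without K1, 0 without K2 and 1 without scaling). Cxcl10, an interferon-induced chemokine, had 1.42, 0.243, 0.403 and 0.153 FPKM in the controls and 2.25, 1.73 and 1.66 after knockdown, where C1 is the high control (limma log2 fold change 1.03, adjusted p 0.0162; limma adjusted p 0.0640 without K1 and 0.0523 without K2). Of 16 small nucleolar RNA host genes 1 rose, Snhg9 (limma log2 fold change 1.02, adjusted p 0.0112; limma adjusted p 0.0528 without K2), and the median was 0.16 [0.09 to 0.30].

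**Figure D4:**
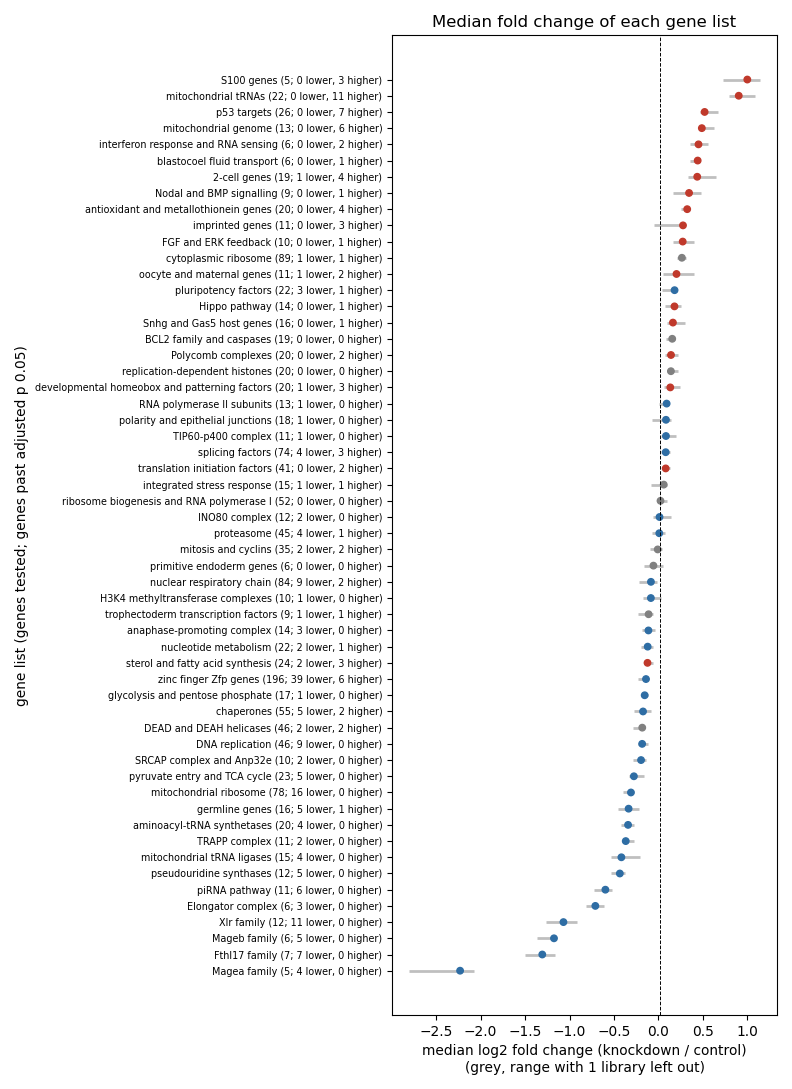
Median log2 fold change of each gene list with at least 5 tested genes, with the numbers tested and past adjusted p 0.05; grey lines give the range with 1 library left out, the dashed line is the median of all tested genes, and colour marks whether more genes of the list passed as lower (blue) or higher (red).

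The knockdown effect in morulae was set against the other stages by a test of the difference, within fits that hold both stages. Against blastocysts the effect was higher in morulae for 802 of 12727 genes (6.30 percent) and lower for 691 (5.43 percent) at an adjusted p under 0.05 in limma. Against 2-cell embryos 63 of 14605 genes (0.431 percent) were higher and 146 (1.00 percent) lower. With the replicate number as a block both counts against 2-cell embryos were 0 (smallest adjusted p 0.0961 in limma). Counts against 2-cell embryos move with single libraries: 26 higher without 2-cell knockdown replicate 1, 93 and 239 without C1, and 55 lower without K1.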

How the data were processed

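The authors deposited FPKM made with STAR and StringTie 2.1.4 on mm10, and these values were used as they are. Reads were not reprocessed, and depth in reads is not known from FPKM. Genes with at least 1 FPKM in at least 3 of the 7 morula libraries were kept. Some genes reach 1 FPKM in only 1 group, so they were tested through the group where they are high. Tests of these genes are not independent of the filter. They include Gm13007, Gm6108, Lncenc1, Cnpy2, Slc25a31, Cox7b2, Ooep, Zfp273, Zfp87, 8030474K03Rik, Trpc5os, Magea8 and Magea2, besides further genes marked in the text. FPKM were divided by a median-ratio factor per library (geometric mean 1), 1 was added and log2 values were taken. Knockdown and control were compared with limma 3.58.1 in R 4.3.3 (lmFit, then eBayes with a trend), with Benjamini-Hochberg adjustment of p over all 10989 genes. Stage differences are interaction terms in fits with 12727 genes (blastocysts) and 14605 genes (2-cell embryos). Named genes are the 12 largest DEGs in each direction, the genes past the threshold and the most abundant gene of some lists, and a fixed set of markers. Where the text names others, it says that their values were already known. The members and the lists were chosen with earlier results of these data known. Replicate numbers of control and knockdown libraries are not taken as pairs. Positions, lengths and transcripts come from GENCODE M21 and promoters from RefSeq. Tables and figures were made with Python 3.11.15, numpy 2.4.6, pandas 2.3.3, matplotlib 3.10.9 and numba 0.67.0.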

Additional observations from a re-analysis of the deposited data

Results flagged for a closer look

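In the 4 control libraries, 1 library stood far from the other 3 for 10 of the 177 genes examined; chance alone marks about 1 in 20 groups. The gap to the nearest other control, as a share of the range of the 4, was Nkx2-9 0.943 (C1), Gata6 0.922 (C1), Sox17 1 (C1), T 1 (C2) and Pax6 0.950 (C2). For the remaining genes it was Neurog1 1 (C8), Gapdh 0.998 (C2), Dusp6 0.911 (C1), mt-Tp 0.842 (C2) and Gclm 0.838 (C1), where the library in brackets stands apart. Several of these genes lie near 0 in every library.

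For 38 genes the knockdown effect differed between morulae and blastocysts at an adjusted p under 0.05 in limma, tested as the difference of the log2 fold changes, which is the value given beside each gene. The effect was higher in morulae than in blastocysts for Npy 1.26, Upp1 3.86, Cnpy2 2.16, Car4 1.08, Wnk1 1.69, S100a10 2.23, Tsx 1.76, Gm14706 1.11 and Eif2s3y 1.95. It was also higher for Magea3 1.61, Atp1b1 1.15, Dusp6 1.38, Ooep 2.28, Snord107 0.99, mt-Tp 1.47 and Mt1 1.70. The effect was lower in morulae than in blastocysts for Gm4565 -1.58, Gm4513 -1.59, H2afv -1.04, Nanog -2.49, Trp53 -1.06, Mtus2 -0.98, 8030474K03Rik -1.41, Trpc5os -1.25 and Dmap1 -0.87. It was also lower for Zfp35 -0.69, Plk2 -1.14, Tdh -1.73, Elf3 -1.45, Obox6 -2.63, Slc25a31 -1.45, Gata1 -1.74, Rpusd3 -0.98 and Trub2 -1.14. The same direction held for Dnajb9 -1.19, Dhodh -1.02, Adsl -1.15 and Cxcl10 -1.33.

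For 49 genes it differed between morulae and 2-cell embryos by the same test. None of these calls held with the replicate number as a block (smallest adjusted p of all genes 0.0961 in limma). The effect was higher in morulae than in 2-cell embryos for Npy 1.89, Nkx2-9 1.89, Upp1 1.99, Cdkn1a 1.62, Gm4565 1.93, Dcxr 1.66, Gm4513 1.92, Ccng1 1.18 and Car4 1.46. It was also higher for Arhgap42 1.15, S100a10 1.19, Zfp960 1.55, Zfp97 1.52, Plk2 1.56, Btg2 1.64, Tdpoz5 1.14, Hormad1 1.299 and Foxa1 1.08. The effect was lower in morulae than in 2-cell embryos for H2afz -2.88, Magea8 -2.81, H2afv -2.71, Magea5 -1.81, Platr14 -2.02, Smim11 -2.53, Nanog -2.15, Magea2 -2.04 and Cnpy2 -2.24. It was also lower for Gm9465 -2.39, Lncenc1 -1.05, Mtus2 -1.94, Xlr4c -1.61, Tceal8 -1.77, Mcts1 -1.57, Brcc3 -1.47, Vma21 -1.64 and 8030474K03Rik -2.03. The same direction held for Trpc5os -1.94, Zfp273 -1.57, Slc25a31 -1.58, Gtsf1l -1.54, Mrps11 -1.04, Cox7b2 -2.04, Rpusd3 -1.66, Pus10 -1.44 and U2af1l4 -1.23. A lower effect was found for Txnl4b -1.42, Polr2g -1.97, Psmb9 -1.02 and Shmt2 -1.08.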

How the results depend on the processing

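Without scaling, 71 genes were upregulated DEGs, 281 passed as higher and 1553 as lower, and 276 had a lower effect than in 2-cell embryos. With a pseudocount of 0.1 there were 205 upregulated and 585 downregulated DEGs and 92 lower effects against 2-cell embryos. Without a filter (32900 genes tested) there were 36 upregulated and 135 downregulated DEGs, 129 higher and 283 lower past adjusted p, 399 lower effects against blastocysts and 74 against 2-cell embryos. A floor of 5 FPKM (6361 genes tested) gave 65, 170, 280 and 578 in the same order. With the replicate number as a block, though labels share only 2 numbers between the groups, 220 genes were upregulated DEGs. With that block the counts against 2-cell embryos were 0 and 0 in limma (smallest adjusted p 0.0961, 1776 genes under 0.05 unadjusted). Residual profiles of libraries with the same number had a mean correlation of 0.138 (2 pairs), others -0.028 (10 pairs). The 6 pairs within the low numbers (1 and 2) or the high (6 to 8) were all positive (0.0943 to 0.346) and the 6 across them all negative (-0.278 to -0.0944). With a covariate for low or high replicate number 777 genes passed as higher. Apart from fewer genes tested, the cause was not tested.

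With 1 library left out, upregulated DEGs ranged from 80 to 145, downregulated from 232 to 382, genes past adjusted p from 140 to 558 higher and 412 to 1186 lower. Effects against blastocysts ranged from 545 to 894 higher and 413 to 865 lower, and against 2-cell embryos from 26 to 93 and from 55 to 239. H2afz lay between -5.54 and -5.34 and H2afv between -3.01 and -2.88. Of 226 called genes that were followed, 118 passed in every fit with a library left out that still tested them, and 0 changed sign under any alternative. Without scaling 20 of the 226 lost their call, without a filter 145, with the block 38. Of 792 list medians under the alternatives, 673 moved by less than the spread of that list between libraries. Shares of X-linked downregulated DEGs, an alternative added after seeing the data, were 10.95 percent without scaling, 13.1 percent at a pseudocount of 0.1, 0.719 percent without a filter, 9.50 percent at a floor of 5 and 6.19 percent with the block. Autosomal shares in that order were 3.60, 5.04, 0.401, 2.44 and 2.62 percent.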

Other observations

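Smart-seq2 libraries do not keep the strand, so exons that overlap on opposite strands share fragments. This concerns Cdkn1a with AC167363.2, and Tmcc1 with Gm20404 and Gm8203. The spread between libraries of a group, as the median standard deviation of log2 values over genes, was 0.240 in the controls and 0.200 in the knockdown, and replicate pairs had Pearson correlations of 0.970 to 0.987.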
